A study of Mus musculus with 24 samples.

Results

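The candidate enhancers described here are the 48 regions, out of 45155 in 6 deposited lists, that overlap a 2.2 Mb window of mouse chromosome 15 (mm9, from 61600001 to 63800000, band qD1). The window holds Myc, at about 61817000 to 61822000, and a long stretch downstream of it with the blood enhancer cluster about 1.7 Mb from the gene. The window was set by position and not by any measured value, though with earlier results of these data known. From the gmp list 6 of 3332 regions fell in it, from k+ 12 of 9404 and from k- 11 of 13856. The gained list added 13 of its 15189 regions, the lost list 2 of 1504 and the maintained list 4 of 1870. These 3 classes are derived from the first 3 lists and add no independent region: gained regions are merged k+ and k- regions that no gmp region meets, lost regions are gmp regions that neither leukemia list meets, and maintained pieces are where gmp and leukemia regions overlap.

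The series profiled H3K27ac, H3K4me1, H3K4me3 and input by ChIP-seq in C57BL/6 granulocyte-monocyte progenitors (GMP, the normal myeloid progenitors), in leukemia stem cells (LSC) and in mature acute myeloid leukemia cells (mAML). The labels give bone marrow as the source of all of them. LSC were also profiled for H3K27ac, P300 and input after 0, 24, 48 and 72 h with A-485, which inhibits the acetyltransferases p300 and CBP. MLL-AF10 was the fusion oncogene of the leukemia cells, which, per the labels' growth protocol, were kept in culture with serum and WEHI-conditioned medium, a source of interleukin-3; that protocol speaks of leukemia cells only. Each of the 24 libraries was the only one of its group. The deposited lists carry positions alone, with 0 columns of signal or score, so depth is unknown, regions cannot be compared in strength, and the time course was not analysed here. The labels do not say which leukemia population k+ or k- stands for, so the lists keep their own names and are called the leukemia lists together.

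Myc encodes a basic helix-loop-helix transcription factor that drives growth and proliferation and on which MLL-fusion leukemias depend. It is known for being controlled over very long distances: its neighbourhood has few coding genes, and separate groups of enhancers downstream serve separate tissues. The distal group used in blood, known as the blood enhancer cluster or BENC, is made of several modules that differ in activity between stem, progenitor and mature myeloid cells and is needed for Myc expression in blood stem cells and in MLL-driven leukemia. In the RefSeq gene order (GRCm38.p6, used for order only), Pvt1, a long noncoding RNA gene, follows Myc directly. The next protein-coding gene is Gsdmc, of the gasdermin family, with 16 annotated genes between it and Myc, Pvt1 included, of which 0 are protein-coding. Beyond it come Gsdmc2, Gsdmc3, Gsdmc4, Cyrib (also called Fam49b), a regulator of Rac1 signalling, and Asap1. Sequences of the regions and their positions relative to Pvt1 were not analysed here, since an mm9 genome and annotation were not used.

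Candidate enhancers lay in a near group within 0.268 Mb of Myc and a far group more than 1.5 Mb downstream, with none between. No region of any of the 6 lists touched Myc itself, and none lay upstream of it in the window. In the band from 0 to 0.5 Mb downstream there were 1 gmp, 2 k+ and 3 k- regions. The bands from 0.5 to 1 Mb and from 1 to 1.5 Mb held 0 regions of every list. Beyond 1.5 Mb there were 5 gmp, 10 k+ and 8 k- regions, which for gmp and k+ was 83.3% of their regions in the window and for k- 72.7%. The sources used here do not state how an enhancer was defined, and the absence of a listed region at the Myc promoter says nothing of its activity.

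**Figure D1:**
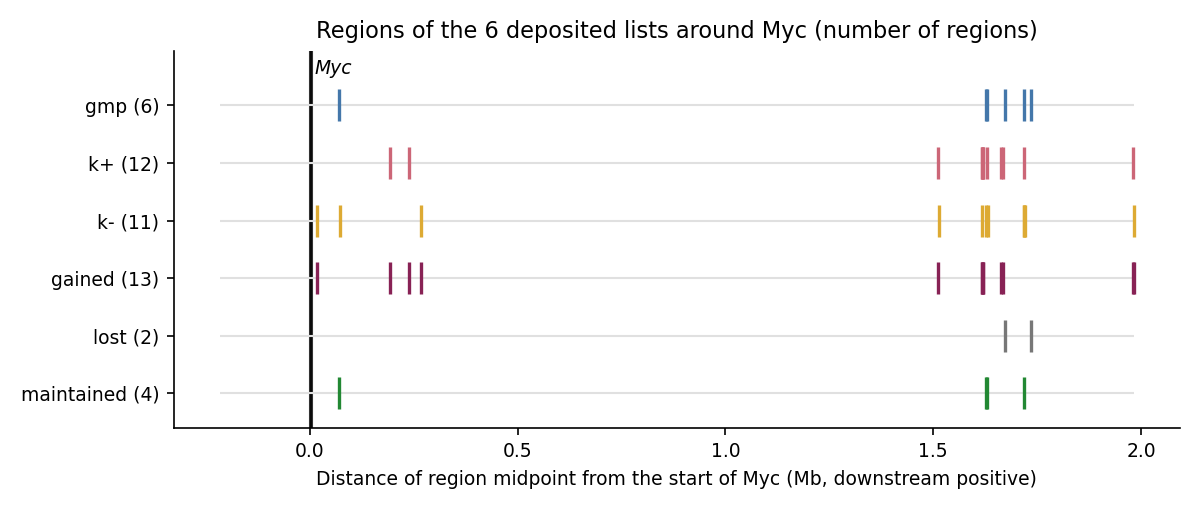
Positions of all 48 regions by list, as the distance of each region's midpoint from the start of Myc in Mb; each tick is 1 region, the black bar is Myc, and grey lines span the window. Ticks stand within 0.268 Mb of Myc and beyond 1.5 Mb, with no tick between; the last ticks, near 1.98 Mb, lie at the edge of the window.

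The empty stretches on both sides of the near group were long ones for these lists. Downstream, no gmp, k+ or k- region lay between 62084601 and 63328000, a stretch of 1.24 Mb that begins 0.268 Mb and ends 1.51 Mb from the start of Myc. Of the 17936 stretches between neighbouring regions of the 3 lists on autosomes, 399 (2.22%) were as long or longer, and the median was 13.2 kb. On the other side, Myc itself lay in an empty stretch of 1.15 Mb, from 60686801 to 61834000, which 456 stretches (2.54%) equalled or exceeded. The nearest regions upstream of Myc were thus outside the window, 1.13 Mb away in k-, 1.15 Mb in gmp and 2.12 Mb in k+. These ranks count stretches by number and not by length, so they do not give the share of the genome that lies in stretches this long. Of 1114 consecutive autosomal windows of 2.2 Mb, 170 held no region of the 3 lists at all. The ranks describe the lists and are not a test. How well reads can be placed in these stretches was not examined.

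In spite of the empty stretches, the window as a whole was not poor in regions. Among 1114 consecutive windows of the same length on the autosomes, the median was 2 gmp, 6 k+ and 9 k- regions. At least as many regions as in the Myc window were found in 213 windows for gmp (19.1%), in 335 for k+ (30.1%) and in 504 for k- (45.2%). The window held 0.180% of the gmp list (exact 95% interval 0.0661 to 0.392%), 0.128% of k+ (0.0660 to 0.223%) and 0.0794% of k- (0.0396 to 0.142%). These intervals overlap, but overlap does not compare the shares, and no test of a difference between the lists was made. The lists also have places in common, so their intervals are not independent of each other. Such intervals reflect counting error alone, and regions close together are not independent.

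**Figure D2:**
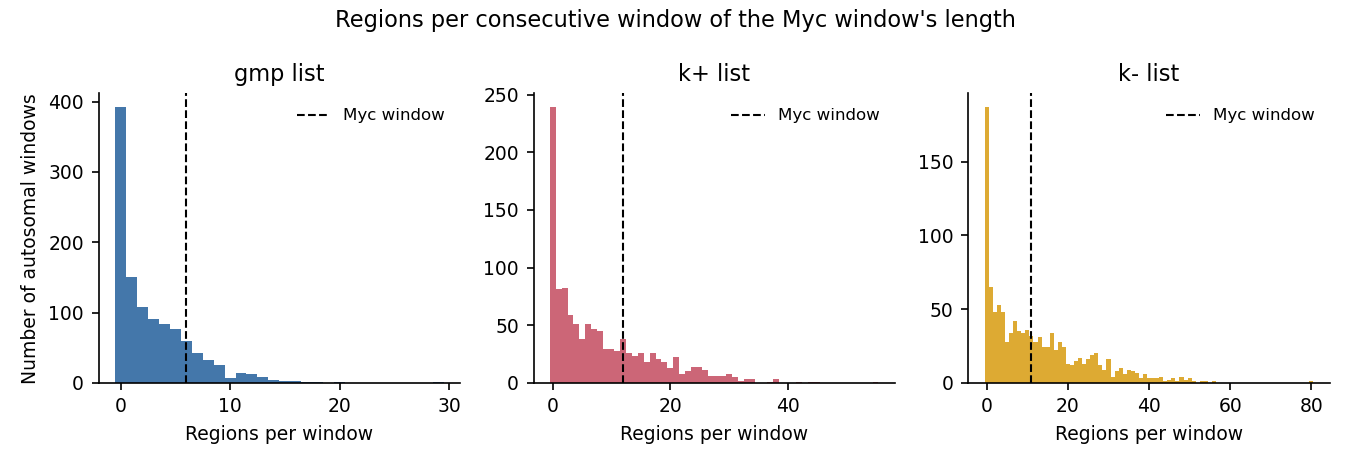
Number of gmp, k+ and k- regions (horizontal axis) in 1114 consecutive autosomal windows of 2.2 Mb (vertical axis, number of windows); the dashed line marks the Myc window. The Myc window, with 6, 12 and 11 regions, lies above the median window of 2, 6 and 9 regions in each list and well inside the range.

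Near Myc the 2 leukemia lists had no region in common. The region closest to the gene was a k- region of 800 bp, from 61834001 to 61834800, whose edge lay 12 kb from the end of Myc; it belonged to the gained list. The next place was the only one near Myc that the gmp list held: a gmp region of 400 bp (61887601 to 61888000), 70.8 kb from the start of Myc, met a k- region of 1800 bp (61887801 to 61889600). They shared 200 bp, and that piece was the maintained region of the near group. The k- list had 1 more region here, of 1600 bp from 62083001 to 62084600, 267 kb from the start of Myc. The k+ list had 2 others, of 200 bp at 62009201 to 62009400 and of 600 bp at 62055801 to 62056400, and the first of these was its closest to Myc, at 192 kb. Near Myc, then, 0 of 2 k+ and 0 of 3 k- regions met the other leukemia list, and k- covered 4.2 kb here against 0.8 kb in k+. Over the whole lists 61.0% of k+ and 39.5% of k- regions met the other list. With 2 and 3 regions, the counts near Myc are too few to tell from these shares.

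The far group made up most of the covered length, and k+ covered more of it than k-. Beyond 1.5 Mb the gmp list covered 3200 bp, k+ covered 16000 bp and k- covered 9000 bp, which was 88.9%, 95.2% and 68.2% of each list's length in the window. Leaving aside the edge of the window, the far regions lay in a stretch of 224.4 kb, from 63328001 to 63552400, 1.51 to 1.74 Mb from the start of Myc. This stretch is 10.2% of the window and held 5 gmp, 9 k+ and 7 k- regions. That is the distance at which the blood enhancer cluster is known; its published modules were not mapped onto these regions.

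**Figure D3:**
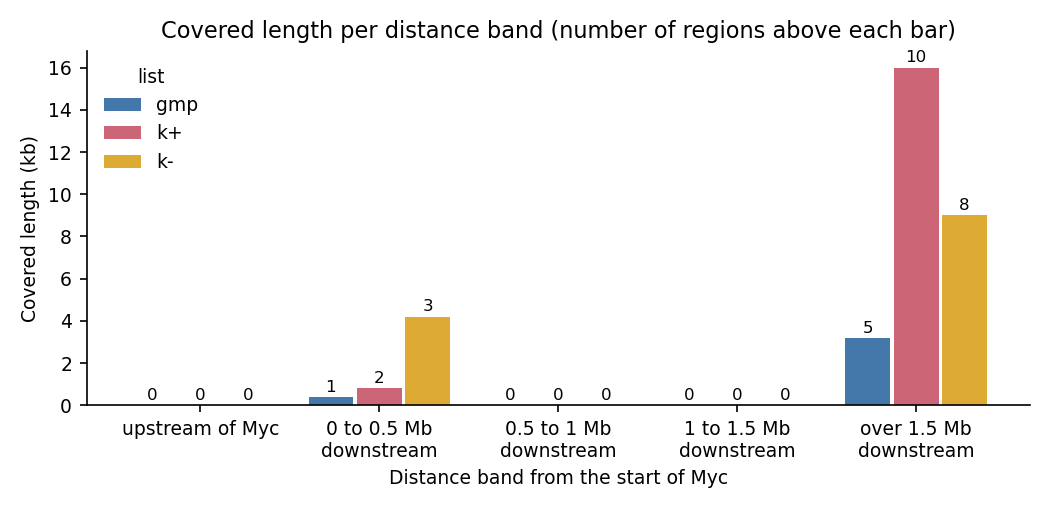
Covered length in kb of the gmp, k+ and k- lists in bands of distance from the start of Myc, with the number of regions above each bar. The length near Myc is mostly k- (4.2 kb of 3 regions), the length beyond 1.5 Mb is mostly k+ (16 kb of 10 regions), and the bands between are at 0.

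In the window k+ covered more length than k-, the reverse of the order of the whole lists. Over the whole genome k- was the longer list, with 16.9 Mb against 10.4 Mb, so that k+ covered 0.615 times the length of k-. In the Myc window k+ covered 16800 bp and k- 13200 bp, a ratio of 1.27. The ratio was 1.84 in the 224.4 kb stretch and 0.190 in the near group. Among the 862 autosomal windows of this length with regions of both lists, the median ratio was 0.604, k+ covered more than k- in 93 (10.8%), and 41 (4.76%) had a ratio as high as the Myc window. This comparison was chosen after the values had been seen. With 1 list for each population and no signal, no error could be attached to the ratio and no test was made.

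Going downstream, the first far place was shared by the leukemia lists and had no gmp region. At 1.51 Mb a k+ region of 2800 bp (63328001 to 63330800) contained a k- region of 1600 bp (63328801 to 63330400), and the k+ region was the widest gained region of the window. Of all k+ regions, 7.40% were as wide or wider. After 102200 bp without a region came the densest cluster of the window. Clusters here are groups of places no more than 12.5 kb apart, a place being what results when overlapping gmp, k+ and k- regions are merged; the window held 18 places.

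The densest cluster spanned 16.2 kb, from 63433001 to 63449200, and combined gained regions at one end with maintained ones at the other. It held 5 places made of 2 gmp, 5 k+ and 3 k- regions, which covered 61.7% of its span. Of the 9358 groups that the same stitching gave over the whole series, single places included, 666 (7.12%) had 5 places or more. Its first 4 places, within 63433001 to 63437600, had no gmp region and gave 4 gained regions. They comprised k+ regions of 200, 400, 2200 and 200 bp, and only the one of 2200 bp (63434601 to 63436800) met a k- region, of 600 bp (63434401 to 63435000), over 400 bp.

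The last place of this cluster was the widest of the window, and the gmp, k+ and k- lists met in it. It ran over 6800 bp, from 63442401 to 63449200. The k+ list had 1 region there, of 6400 bp (63442401 to 63448800), and only 41 of its 9404 regions (0.436%) were as wide or wider. The k- list had 2, of 4200 bp (63442401 to 63446600), a width reached by 3.15% of k- regions, and of 800 bp (63448401 to 63449200), 1800 bp apart. The gmp list had 2 narrower ones, of 600 bp (63443201 to 63443800) and 1400 bp (63444601 to 63446000), the second being the widest gmp region of the window. Both gmp regions lay wholly inside the k+ region and inside the wider k- region, so all 2000 bp of them were maintained. The leukemia lists shared 4600 bp of this place. It begins at the same position in both of them, at the 200 bp resolution of the lists.

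**Figure D4:**
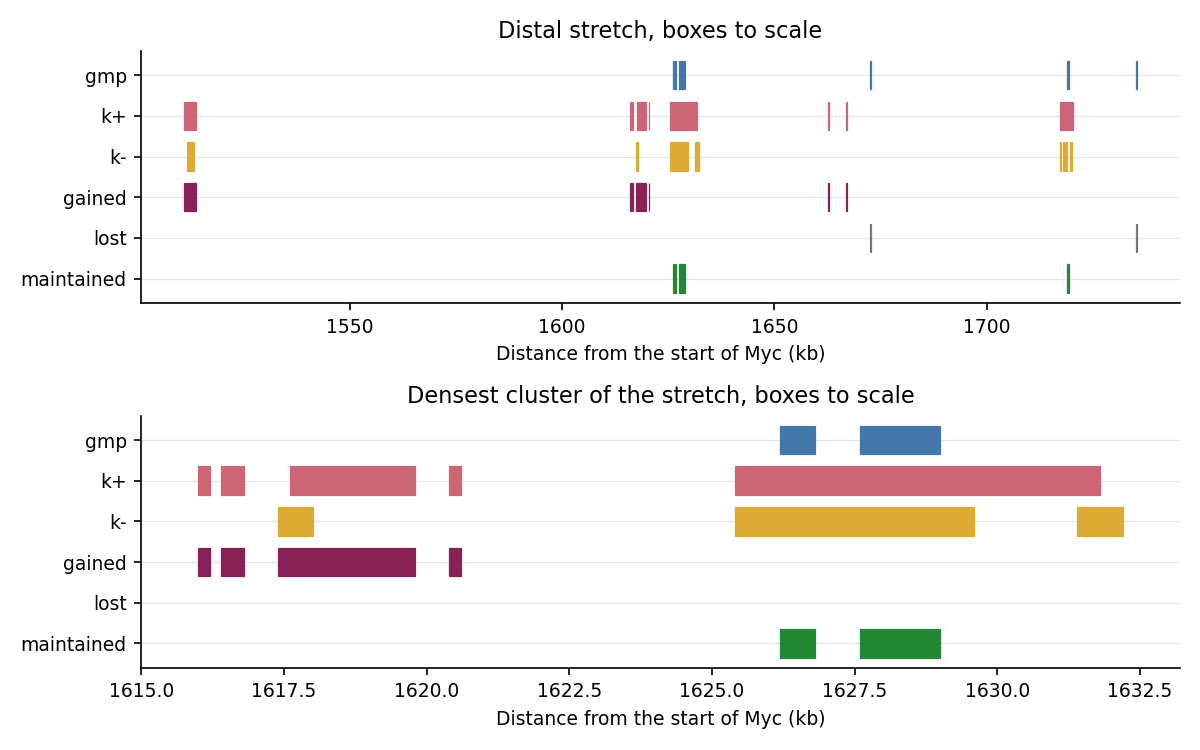
Regions of the 6 lists in the 224.4 kb stretch (upper panel) and in the 16.2 kb cluster (lower panel), as boxes drawn to scale against distance from the start of Myc in kb. In the cluster, 4 gained regions stand on the Myc side and 2 maintained pieces lie inside the k+ region of 6400 bp and the k- region of 4200 bp; no lost region falls in the cluster.

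The other cluster of 3 or more places held no k- region. It spanned 10.2 kb, from 63479601 to 63489800, and 3 narrow, separate places covered 9.80% of it. The k+ list had regions of 200 bp (63479601 to 63479800) and 400 bp (63483801 to 63484200), both gained. The gmp list had a region of 400 bp (63489401 to 63489800), which was lost. No 2 lists overlapped here, although the lost region lay 5200 bp from a gained one. Groups with 3 or more places were common in the series, 1983 of 9358 (21.2%). In the window they held 8 of the 18 places (44.4%), against 48.8% of the places of the series.

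Farther on, a single place held all 3 lists again, but the gmp region met k+ alone. At 1.72 Mb, k+ had 1 region of 3000 bp (63534201 to 63537200), and 6.25% of k+ regions were as wide or wider. The k- list had 3 short regions inside it, of 200 bp (63534201 to 63534400), 800 bp (63535001 to 63535800) and 400 bp (63536601 to 63537000). The gmp region of 600 bp (63535801 to 63536400) began where the second of these ended and ended 200 bp before the third. It shared 600 bp with k+ and 0 bp with k-, so its maintained piece rested on the k+ list. After a further 15000 bp came the last region of the stretch, a gmp region of 200 bp (63552201 to 63552400), the narrowest width the lists hold. It was lost, and 1 of 2 lost regions of the window together with that at 1.67 Mb. Neither lost region was wider than 400 bp.

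The last 2 places, near 1.98 Mb, belong to a dense group that runs on past the window. They were a k+ region of 200 bp (63797201 to 63797400) and a k- region of 400 bp (63799401 to 63799800), both gained. Followed past the window, the group had 20 places within 92.6 kb, ending at 63889800, of which 18 lay outside the window. In the 1 Mb that follows the window there were 4 gmp, 26 k+ and 36 k- regions. These 2 regions are therefore counted in the window but set apart from the 224.4 kb stretch by 244800 bp without a region.

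With an overlap of 1 bp, the share of regions met by the other leukemia list was lower for k+ and higher for k- than in the whole lists, in both cases within the interval that so few regions allow. The higher share of k- did not hold for a stricter overlap. The 12 k+ regions included 4 that met a k- region, or 33.3% (9.92 to 65.1%), against 61.0% in the whole k+ list. The 11 k- regions included 7 that met a k+ region, or 63.6% (30.8 to 89.1%), against 39.5% in the whole k- list. Outside the window the shares were 60.999% (60.0 to 62.0%) and 39.4% (38.6 to 40.3%). With 50% of both regions shared, 2 of 12 k+ regions met k-, or 16.7% (2.09 to 48.4%), against 31.8% in the whole list. The same setting left 2 of 11 k- regions met by k+, or 18.2% (2.28 to 51.8%), against 21.6%. Regions set to 500 bp either side of their midpoint also gave 16.7% and 18.2%. Widths went with the values at 1 bp: all shared k+ regions were wide ones, of 2200 to 6400 bp. Just 2 of these wide regions accounted for 5 of the 7 k- regions that met k+.

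In base pairs, k+ and k- shared 8000 bp, which was 47.6% of the k+ length and 60.6% of the k- length in the window. Over the whole lists these shares were 61.7% of k+ and 37.9% of k-. The gmp regions covered 3600 bp, of which 2600 bp (72.2%) lay in k+ and 2200 bp (61.1%) in k-. Over the whole gmp list 36.02% of the length lay in k+ and 45.8% in k-. The higher shares here rest largely on the 2 gmp regions of the 6800 bp place, which supply 2000 of those base pairs in both comparisons.

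By number, gmp regions were met about as in the whole list at an overlap of 1 bp. A k+ region met 3 of the 6, or 50% (11.8 to 88.2%), against a background of 37.8%, and a k- region met 3 of the 6, against 47.4%. Those met by k+ were the 2 of the densest cluster and the one at 1.72 Mb, and those met by k- were the same 2 and the one near Myc. Lost regions numbered 2 of 6, or 33.3% (4.33 to 77.7%), against a background of 45.1%. These classes rest on an overlap of 1 bp: with 50% of both regions shared, all 6 gmp regions were lost and 0 maintained, against 86.7% lost in the whole list. Merging k+ and k- gave 16 leukemia regions in the window, of which 13 were gained, or 81.25% (54.4 to 95.95%), against a background of 90.0%. All of these shares were too imprecise to tell from the background.

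Places with k+ alone were the most frequent kind in the window. Of the 18 places, 8 (44.4%) held k+ only, 3 (16.7%) k- only and 2 (11.1%) gmp only. Both leukemia lists without gmp met in 2 places (11.1%), against 23.4% of the places of the series. All 3 lists had regions in 2 (11.1%, against 6.03%), gmp with k- in 1 (5.56%, against 2.14%) and gmp with k+ in 0 (against 0.764%). The place at 1.72 Mb counts as having all 3 lists through its k+ region, since gmp and k- shared 0 bp there. Over the 18331 places of the series the order was the other way for the leukemia lists, with 17.6% k+ only and 41.9% k- only. Places with gmp only were 8.20% of the series. The 8 places with k+ alone were narrow, with a median of 200 bp, so they weigh little in the covered length. Those at 1.6161, 1.6166 and 1.6205 Mb lay 200 to 600 bp from a neighbouring place of the densest cluster, around a place shared with k-. The count of places with k+ alone thus depends on how far apart places may be and still be joined, and no interval was computed for it. Places in 1 list only had a median width of 400 bp (200 to 1600 bp, 13 places), and those in more than 1 list 2800 bp (2000 to 6800 bp, 5 places). Every shared place of the window was wider than every place in 1 list only. Merging widens shared places and wide regions are easier to meet, so part of this order is built in.

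The widths within each list were spread unevenly. The gmp regions had a median of 500 bp (200 to 1400 bp), against 600 bp in the rest of that list. The k+ regions had a median of 400 bp, against 800 bp in the rest, but ranged from 200 to 6400 bp: 5 of 12 were of 200 bp and 4 were of 1000 bp or more. In the rest of the k+ list 43.9% were of 1000 bp or more, and 82.6% of all k+ regions were of 400 bp or more. The k- regions had a median of 800 bp, the same as in the rest, and ranged from 200 to 4200 bp, with 1 of 200 bp and 4 of 1000 bp or more. For k- the same shares were 48.5% in the rest of the list and 83.7% of all regions. The 4 k+ regions of 1000 bp or more all lay in the far group, and all k+ regions near Myc were of 600 bp or less. Of the 4 k- regions of 1000 bp or more, 2 lay near Myc and 2 in the far group.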

How the data were processed

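The authors deposited 6 lists of regions (chromosome, start, end) for the whole series, in positions on mm9, with no score, signal or read count. The submitters' processing notes name BWA, Picard, MACS2, HOMER, deepTools and mm9; versions, settings, the enhancer rule and any pooling of libraries are not stated there. Depth per library is unknown.

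Regions overlapping the window by 1 bp or more were taken. Positions are counted from 1, and distances run from the start of Myc, as placed approximately by the window's definition, to region midpoints unless an edge is named. Overlaps were computed with pandas 2.3.3 and NumPy 2.4.6 under Python 3.11.15, intervals with SciPy 1.17.1 and figures with matplotlib 3.10.9. Overlaps were checked with bedtools 2.31.1. Leukemia regions that overlap or touch were merged. This rebuilt the 13 gained, 2 lost and 4 maintained regions of the window with identical coordinates. Chromosome lengths and bands came from circlize 0.4.16 in R 4.3.3. The consecutive windows start at the first base of each autosome, and a shorter last one was left out. Shares carry exact Clopper-Pearson 95% intervals. The overlap code recovered all 1400 planted overlaps among 4000 simulated regions.

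The regions named with coordinates were all gmp regions, the region of each list nearest to Myc, the 5 widest k+ and k- regions and clusters of 3 or more places. All others were added so that every region is accounted for. The window, lists and tests were chosen with earlier results of these data known. No list has a replicate, so no test between populations was made.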

Additional observations from a re-analysis of the deposited data

How the results depend on the processing

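No paired analysis was possible because the lists carry no replicate numbers and no group has a second sample; leaving out a replicate was not applicable. Of 117 alternative values, 95 stayed near the value reported (counts and ratios within 1.5 times, shares within their interval, medians equal) and 22 moved; the 4 alternatives for the covered length were chosen after seeing the data. Keeping regions of at least 800 bp left 1 gmp, 4 k+, 7 k-, 4 gained, 0 lost and 1 maintained region. Of these, 0 gmp, 0 k+ and 3 k- lay within 0.5 Mb, and 1 gmp, 4 k+ and 4 k- beyond 1.5 Mb. Over the whole lists 57.6% of k- and 52.9% of gained regions were at least 800 bp wide. That share was not computed for the other lists. Asking for 50% of both regions made all 6 gmp regions lost and 0 maintained. It left 18.2% of k- regions met by k+ and 16.7% of k+ regions met by k-. Both values were the same with regions set to 500 bp either side of their midpoint, a setting without a whole-list share. Clusters of 3 or more numbered 1 instead of 2 when stitched at 5 kb, 0 in the gmp list alone and 1 in k+ alone. Joining regions within 1 kb changed the median width to 400 bp in gmp, 600 bp in k+ and 1600 bp in k-. With 100 kb removed from each end, 16.4% of consecutive windows held as many gmp regions. The ratio of k+ to k- length stayed above 1 under its 4 alternatives (1.16 to 1.297) and was 1.16 without the widest region of each list. Without scores, the part of calling depth in these lists was not tested.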
